A study of Caenorhabditis elegans with 2 samples.

Results

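Translation factor and tRNA synthetase genes of *Caenorhabditis elegans* were examined for binding by the Hox protein LIN-39. The set holds every protein-coding gene whose Ensembl name begins with eif- (25 initiation factor genes), eef- (6 elongation factor genes) or ife- (5 genes of the cap-binding protein eIF4E), and every gene named with an amino acid letter followed by ars- and a number (32 tRNA synthetase genes). That gives 68 of the 19973 protein-coding genes on the 6 nuclear chromosomes. The rule reads gene names and no signal or rank. A gene was called bound where the summit of a peak in the authors' optimal list lay in its body or in the 2000 bp upstream of its start.

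The measurement was chromatin immunoprecipitation and sequencing (ChIP-seq) of eGFP-tagged LIN-39 in 2 biological replicates of whole third-stage (L3) larvae, of mixed sex. All animals were of strain OP18, genotype unc-119(ed3) III; wgIs18, where wgIs18 is the integrated insertion carrying the tagged lin-39 gene, and there was no second strain, stage or treatment. The optimal list held 4250 peaks, which are the 4250 of highest signal among 30000 peaks called on the pooled replicates; the relaxed lists of single replicates held 30000 peaks in replicate 1 and 27572 in replicate 2. Signal is the authors' peak-caller value and was used only to order peaks within a list. Read numbers are not in the peak lists, so the depth behind each value is unknown, and no test between conditions was possible.

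LIN-39 is the Hox protein of the mid-body in *C. elegans*, known for its part in vulval precursor cells, ventral cord neurons and neuroblast migration. Translation factors and tRNA synthetases are used by all cells: initiation factors bring the small ribosomal subunit, the initiator tRNA and the mRNA cap together, elongation factors deliver charged tRNAs and move the ribosome, and synthetases load each tRNA with its amino acid. In whole larvae the cells that carried LIN-39 at a site cannot be told apart from those that did not, and a peak near a gene does not by itself say that the gene is controlled there.

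LIN-39 summits lay at 30 of the 68 genes (44.1%), beside 19.2% of all protein-coding genes. They were found at 6 of 6 elongation factor genes, 15 of 25 initiation factor genes (60.0%), 3 of 5 eIF4E genes and 6 of 32 synthetase genes (18.8%), the last near the share of all genes. Since longer windows have more room for a summit, the count was also set beside the 5408 genes whose windows had lengths between the quartiles of the members' own (4011 to 5844 bp), of which 18.5% were bound. Synthetase genes had the longest windows of the 4 families, with a median of 5576 bp against 4027 bp over all genes, and the lowest share bound. Because peaks of the optimal list were chosen by signal in the pooled list, all counts also depend on where that list was ended, and the counts at other depths follow after the single genes.

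The DNA under the summits is shown as 101 bases centred on the summit, for up to 4 summits of highest signal in each family among those on chromosomes II to V and X whose 101 bases overlap no exon of a protein-coding gene. These criteria leave out the windows of *eef-1B.1*, *ears-2* and *eif-3.D* that overlap such exons. Coordinates are on ce11, sequence is from the RefSeq assembly of the same build (WBcel235), and each is written 5′ to 3′ on the strand of the gene. Capitals mark GAGAGA on either strand, a GA repeat; the other motif searched on both strands, the Hox and Pbx composite TGATNNAT, occurs in none of these windows. The window of *eef-1A.1* overlaps 27 bases of the annotated miRNA gene cel-mir-5549, and that of *eif-2Bgamma* overlaps 44 bases of the small nuclear RNA gene *sup-39*.
eef-1A.2, chrX:7823263-7823363, plus strand: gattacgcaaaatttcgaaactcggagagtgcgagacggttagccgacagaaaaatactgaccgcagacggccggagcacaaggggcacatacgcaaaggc
eef-1A.1, chrIII:6972059-6972159, minus strand: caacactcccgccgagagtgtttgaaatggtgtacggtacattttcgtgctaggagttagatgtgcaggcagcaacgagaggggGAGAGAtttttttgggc
eef-1G, chrV:10965614-10965714, plus strand: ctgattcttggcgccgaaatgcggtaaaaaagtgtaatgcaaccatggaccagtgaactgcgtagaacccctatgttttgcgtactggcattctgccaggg
eef-1B.2, chrIV:15037132-15037232, plus strand: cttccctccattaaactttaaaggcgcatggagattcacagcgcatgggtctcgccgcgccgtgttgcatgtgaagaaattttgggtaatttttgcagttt
eif-3.B, chrII:14795121-14795221, plus strand: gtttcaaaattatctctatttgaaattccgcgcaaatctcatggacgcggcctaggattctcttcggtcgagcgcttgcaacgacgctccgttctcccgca
eif-2Bgamma, chrII:6968515-6968615, minus strand: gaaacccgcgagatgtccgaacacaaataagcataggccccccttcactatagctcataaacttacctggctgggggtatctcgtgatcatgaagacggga
eif-1.A, chrIV:4810510-4810610, plus strand: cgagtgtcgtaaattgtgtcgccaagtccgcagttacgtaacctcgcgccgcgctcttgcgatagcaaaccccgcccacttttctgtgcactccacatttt
eif-3.G, chrII:8442385-8442485, plus strand: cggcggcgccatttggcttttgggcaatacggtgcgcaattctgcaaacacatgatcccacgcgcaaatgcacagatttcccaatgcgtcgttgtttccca
ife-4, chrX:1103819-1103919, plus strand: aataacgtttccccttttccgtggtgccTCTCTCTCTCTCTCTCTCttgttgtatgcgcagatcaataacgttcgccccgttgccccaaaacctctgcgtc
ife-3, chrV:8927-9027, minus strand: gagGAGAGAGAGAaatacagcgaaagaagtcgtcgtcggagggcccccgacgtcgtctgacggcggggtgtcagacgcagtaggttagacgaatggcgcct
ife-2, chrX:382829-382929, minus strand: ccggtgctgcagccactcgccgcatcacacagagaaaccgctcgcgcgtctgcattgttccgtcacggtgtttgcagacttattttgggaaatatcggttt
ife-3, chrV:8194-8294, minus strand: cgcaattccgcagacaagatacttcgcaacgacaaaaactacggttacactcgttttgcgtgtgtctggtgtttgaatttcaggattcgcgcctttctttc
rars-1, chrIII:4918104-4918204, minus strand: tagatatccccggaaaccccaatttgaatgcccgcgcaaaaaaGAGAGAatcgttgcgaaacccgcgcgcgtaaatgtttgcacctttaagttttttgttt
tars-1, chrII:11694628-11694728, minus strand: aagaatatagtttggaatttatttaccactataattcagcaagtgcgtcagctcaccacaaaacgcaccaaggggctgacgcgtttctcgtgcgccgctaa
hars-1, chrIV:10858788-10858888, plus strand: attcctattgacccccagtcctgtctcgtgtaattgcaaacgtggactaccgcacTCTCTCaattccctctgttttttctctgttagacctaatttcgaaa

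Among these windows *ife-4* carried a run of TC dinucleotides with 7 overlapping copies of the GAGAGA complement, and the stronger summit of *ife-3* a run with 3 copies. The elongation factor windows of *eef-1A.2*, *eef-1G* and *eef-1B.2* held none. GAGAGA lay within 50 bp of 9 of the 37 distinct summits in members' windows (24.3%), beside 28.2% of all optimal summits and 25.9% of those in promoters, so its share was not higher at translation genes.

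All 6 elongation factor genes were bound, and 5 of the 6 already among the 250 strongest pooled peaks, where 1.71% of all genes stood. Both genes of eEF1A, the GTPase that carries aminoacyl-tRNA to the ribosome, were high in the list. The *eef-1A.2* peak (chrX:7823274-7823389) had a signal of 191 and ranked 74 of 4250, 341 bp upstream of the gene start; its summit ranked 76 in replicate 1 and 69 in replicate 2. The *eef-1A.1* peak (chrIII:6972041-6972174) had a signal of 180 and ranked 91, 397 bp upstream; it ranked 412 in replicate 1 and 54 in replicate 2. This summit was nearer to the start of *rfc-4*, a replication factor C subunit, than to *eef-1A.1*. The flanks of both summits share no identical run longer than 9 bp within 250 bp, while the gene bodies share up to 55 bp.

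The subunits of the eEF1B exchange complex, which reloads eEF1A with GTP, were bound as well. The *eef-1B.1* peak (chrIII:7973355-7973440) had a signal of 160 and lay 12 bp inside the gene, at rank 258 in replicate 1 and 98 in replicate 2. A second *eef-1B.1* summit, 766 bp upstream and nearest to a transcript start of the aconitase gene *aco-2*, had a signal of 35.4; it ranked 1983 in replicate 2 and had no summit within 150 bp in replicate 1. At *eef-1G*, the gamma subunit, the summit 55 bp upstream had a signal of 139 and ranked 1125 in replicate 1 and 87 in replicate 2. At *eef-1B.2* it lay 149 bp upstream with a signal of 58.2, at ranks 3088 and 1393. The translocation factor gene *eef-2* had a signal of 153 at a summit 4 bp upstream of its start, ranked 271 in replicate 1 and 139 in replicate 2. Of the 7 elongation factor summits, 6 had a higher place in replicate 2 than in replicate 1 (85.7%, beside 46.8% of all optimal summits), and the other had no summit in replicate 1. The order of these genes in a single replicate was not the same in the other.

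Initiation factor genes are described by complex, beginning with eIF2, the GTPase that brings the initiator tRNA. Its 3 subunit genes were bound, beside 19.2% of all genes. The summit for *eif-2alpha* (peak chrI:2070823-2070939) had the highest signal of any member, 208, at rank 52, and ranked 137 in replicate 1 and 39 in replicate 2. It lay 1783 bp upstream, outside the gene's own promoter, 290 bp from the start of *Y37E3.8* and also within the windows of *rla-1*, a ribosomal stalk protein gene, and *phb-1*, a prohibitin gene. At *eif-2gamma* a summit 117 bp upstream had a signal of 74.8 and ranked 1327 and 1333 in replicates 1 and 2, and another 952 bp upstream, nearer to *tbca-1*, had a signal of 34.5 and ranked 20137 and 3124. At *eif-2beta* a summit 107 bp upstream had a signal of 53.9 and ranked 4767 and 3584. One 764 bp inside the gene, 196 bp from the start of a shorter transcript of its own, had a signal of 54.6 and ranked 2908 and 1525. Of the 5 subunit genes of eIF2B, the exchange factor of eIF2, 1 was bound (20%, beside 19.2% of all genes): *eif-2Bgamma* (signal 83.9, 917 bp upstream, ranks 711 and 1136), at a summit within 200 bp of the annotated small nuclear RNA gene *sup-39*. The strongest pooled summits at *eif-2Balpha* and *eif-2Bdelta* had signals of 18.2 and 6.52, below the weakest optimal peak at 33.1, and *eif-2Bbeta* and *eif-2Bepsilon* had no pooled summit, though *eif-2Bbeta* had a summit at rank 3689 in replicate 2.

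eIF3 is the large scaffold that holds the small subunit ready for the mRNA. Of the 11 genes with eif-3. names 8 were bound (72.7%, beside 19.2% of all genes). Subunit genes under other names are not counted here. The *eif-3.C* peak (chrI:9979737-9980052) had a signal of 154 at rank 153, 233 bp upstream of the gene start and in no other gene's window; it ranked 325 in replicate 1 and 141 in replicate 2. The *eif-3.B* summit also lay 233 bp upstream, had a signal of 86.6 and ranked 1087 and 1041. The others were *eif-3.J* (signal 81.7), *eif-3.E* (72.7), *eif-3.I* (58.4), *eif-3.G* (53.4), *eif-3.D* (47.9 and 35.0 at separate summits) and *eif-3.H* (40.8, 233 bp upstream). Replicates differed for part of them: *eif-3.E* ranked 546 in replicate 1 and 4182 in replicate 2, *eif-3.H* ranked 1427 and 8573, and the *eif-3.D* summit 253 bp upstream ranked 2236 and 8874. The other *eif-3.D* summit, 1735 bp upstream, ranked 2575 and 3571. The *eif-3.D* summits and that of *eif-3.H* were nearer to the starts of other genes. The genes not bound were *eif-3.K*, with a pooled signal of 19.2, *eif-3.F*, with 8.92, and *eif-3.L*, which had no summit in the pooled list or either replicate list.

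Among the single initiation factors, *eif-6*, whose product keeps ribosomal subunits apart until they are needed, had a peak of signal 109 (chrI:12966807-12967122) at 1981 bp upstream, near the edge of the window and 170 bp from the start of the alpha-tubulin gene *tba-2*. That summit ranked 432 in replicate 1 and 1055 in replicate 2; within *eif-6*'s own promoter a summit 351 bp upstream, nearest to a start of the proteasome subunit gene *pbs-2*, had a signal of 38.1 and ranked 25687 and 2780. The *eif-1.A* gene, for the start codon selection factor eIF1A, had a signal of 70.0 at 374 bp upstream, ranked 588 in replicate 1 and 4790 in replicate 2. The *eif-4A3* gene, for a helicase of the exon junction complex, had a signal of 39.5. Other genes stayed below the optimal list: *eif-2D*, a factor for initiation outside the canonical route (signal 32.8 at pooled rank 4311), *eif-2A* (24.3) and *eif-1* (19.3).

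Of the genes for eIF4E, the protein that grips the mRNA cap, *ife-4*, *ife-3* and *ife-2* were bound. The *ife-4* peak (chrX:1103711-1104026) lay 343 bp upstream in no other gene's window, had a signal of 78.5 and stood at rank 879 in replicate 1 and 1058 in replicate 2. The *ife-2* peak (chrX:382721-383036) lay 170 bp upstream, had a signal of 61.2 and ranked 1414 and 2215. At *ife-3*, the stronger peak (chrV:8819-9134) had a signal of 67.1 at 1149 bp upstream, 238 bp from the start of *B0348.10*, at ranks 1276 and 1435; the weaker summit, 416 bp upstream, had a signal of 42.1 and ranked 20170 and 1212. The strongest pooled summits at the 2 unbound genes, *ife-1* and *ife-5*, had signals of 11.5 and 9.17.

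**Figure D1:**
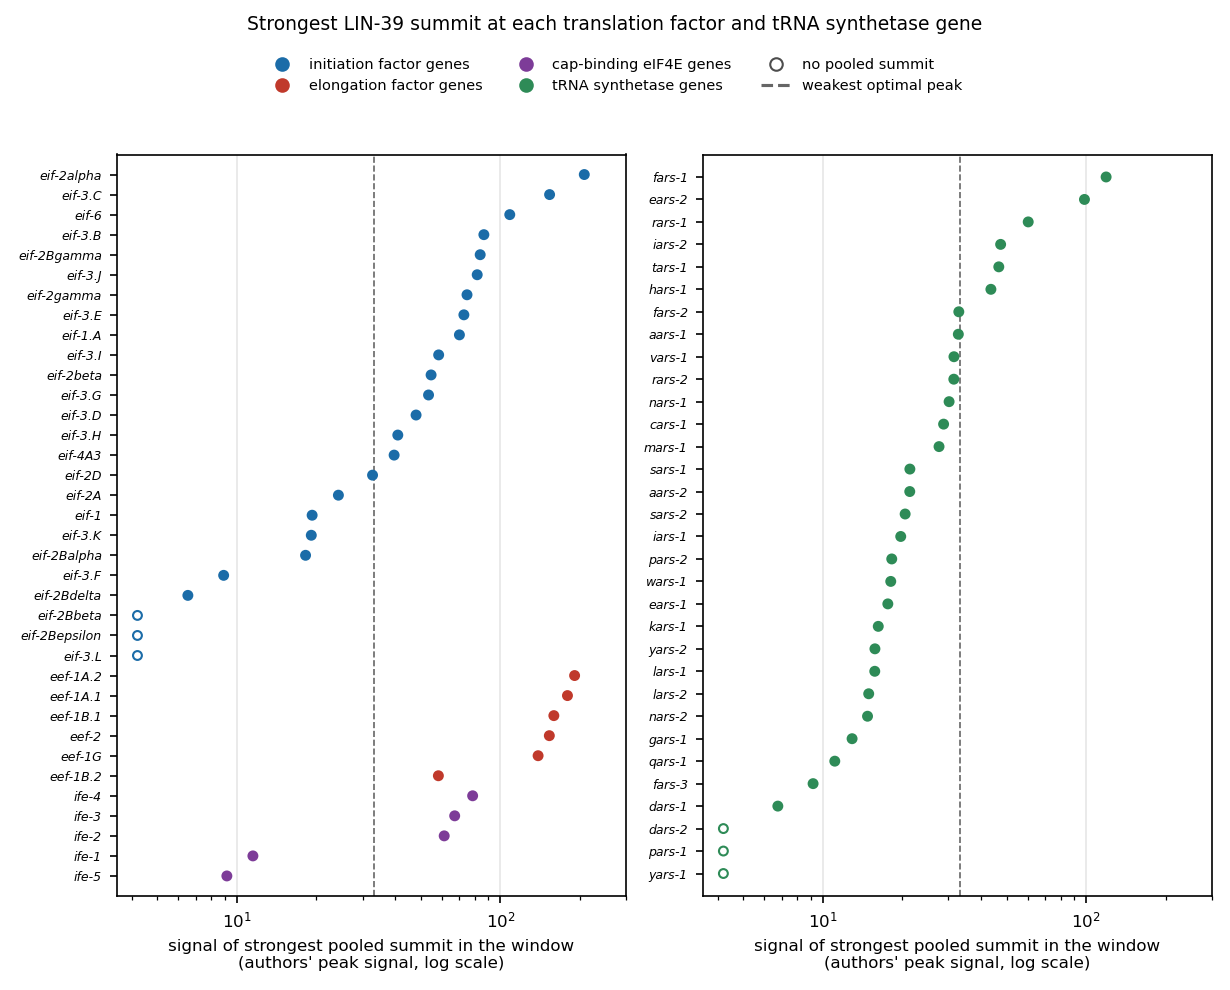
Signal of the strongest pooled summit in the window of each of the 68 genes (log axis), factors on the left and synthetases on the right; the dashed line is the weakest optimal peak at 33.1 and open circles mark genes with no pooled summit. Elongation factor genes lie between 58.2 and 191, while 23 of the 26 unbound synthetase genes have a summit below the line.

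Synthetase genes were bound at *fars-1*, *ears-2*, *rars-1*, *iars-2*, *tars-1* and *hars-1*. The *fars-1* peak of highest signal (chrI:6212702-6213017; signal 119, rank 338, ranks 469 and 316 in the replicates) lay 1825 bp inside the gene, in the promoter of the mitochondrial ribosomal protein gene *mrpl-23* and within 200 bp of a small nucleolar RNA gene. Another *fars-1* summit, 886 bp upstream and nearest to *rbm-5*, had a signal of 77.2 and ranked 1558 and 1157. The *ears-2* peak (chrIV:390335-390650) had a signal of 98.5 only 25 bp upstream of the gene, which RefSeq describes as the mitochondrial glutamyl-tRNA synthetase, and ranked 773 and 574. The *rars-1* peak (chrIII:4917996-4918311; arginine, cytoplasmic) lay 977 bp upstream with a signal of 60.2, at ranks 1840 and 1756, and 146 bp from the RNA polymerase subunit gene *rpb-8*. *iars-2* had a signal of 47.3 at 1786 bp upstream, outside its own promoter. The last ones rest mainly on replicate 2. The *tars-1* summit lay 979 bp inside the gene, 385 bp from the start of a shorter transcript. A transcript start of *kel-1* was nearer, at 150 bp. This summit had a signal of 46.6 and ranked 5510 in replicate 1 and 2500 in replicate 2. *hars-1* had 43.5 at 119 bp upstream, with no summit in replicate 1 within 150 bp and rank 1896 in replicate 2.

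The names of the 32 synthetase genes use 20 amino acid letters; synthetase genes with other names, such as *glp-4* for valine, are not counted here. Of 9 letters with a single gene of such a name, 2 genes (*hars-1* and *tars-1*) were bound. Of 11 letters with 2 or more genes, exactly 1 gene was bound for 4 letters and none for 7. By RefSeq product name, 2 of 10 genes called cytoplasmic (20%), 1 of 4 called mitochondrial (25%) and 3 of 18 with no compartment named (16.7%) were bound, all near the 19.2% of all genes.

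Many unbound synthetase genes lay just below the optimal list. The weakest optimal peak had a signal of 33.1, and the strongest pooled summits were at 32.8 for *fars-2*, 32.7 for *aars-1*, 31.5 for *vars-1*, 31.4 for *rars-2* and 30.2 for *nars-1*. Lower still were *cars-1* (28.8) and *mars-1* (27.6), so 7 unbound synthetase genes stood among the 6000 strongest pooled peaks. Signals between 14.8 and 21.4 were found at *sars-1*, *aars-2*, *sars-2*, *iars-1*, *pars-2*, *wars-1*, *ears-1*, *kars-1*, *yars-2*, *lars-1*, *lars-2* and *nars-2*, and signals between 6.76 and 12.9 at *gars-1*, *qars-1*, *fars-3* and *dars-1*. The genes *dars-2*, *pars-1* and *yars-1* had no pooled summit. Of these, *dars-2* had none in either replicate list.

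Past the optimal list the share of synthetase genes with a summit rose with the number of peaks used, from a start lower than that of the other families, of which the elongation factor genes had no room to rise. With the 3000 strongest pooled peaks it was 18.8%, with 6000 it was 40.6% (13 genes, all genes 24.0%), with 10000 it was 62.5% (20 genes) and with 15000 it was 81.3% (26 genes, all genes 41.4%). At 10000 peaks 49 of the 68 members had a summit, beside 32.7% of all genes and 32.4% of genes with windows of like length. In the whole pooled list 62 of the 68 did, of them 29 synthetase genes, beside 61.5% of all genes. At the other end, the 1000 strongest peaks held summits at 14 members beside 5.76% of all genes: 6 initiation factor genes, 5 elongation factor genes, 1 eIF4E gene and 2 synthetase genes.

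**Figure D2:**
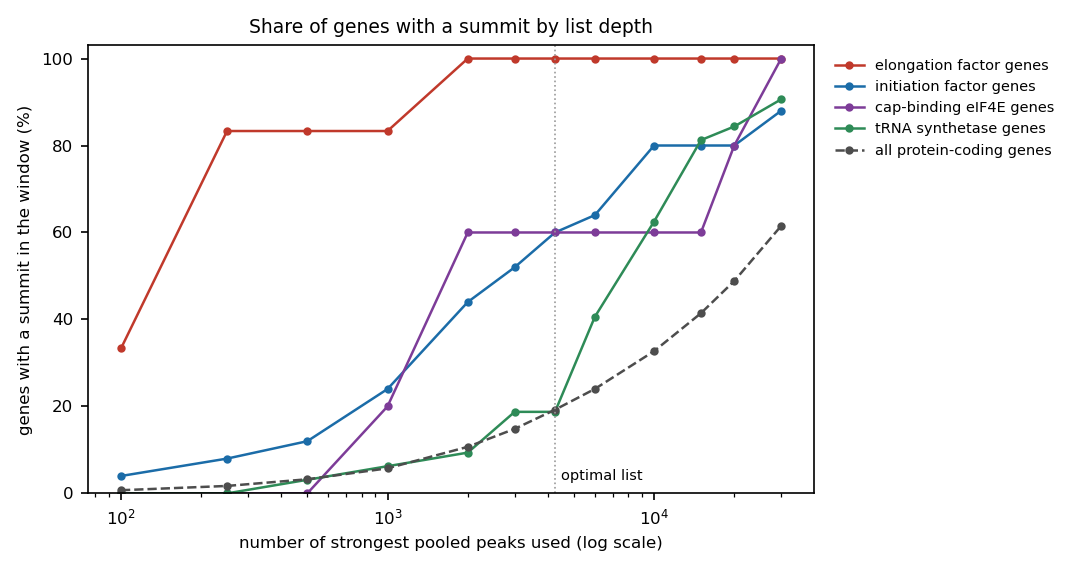
Percent of genes with a summit in their window against the number of strongest pooled peaks used (log axis), for the 4 families and all protein-coding genes; the dotted line marks the 4250 peaks of the optimal list. The synthetase line stays near that of all genes up to the optimal list and then rises to 62.5% at 10000 peaks, where all genes reach 32.7%.

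The same count in each replicate's own 4250 strongest peaks gave 32 members in replicate 1, where 18.3% of all genes were bound, and 35 in replicate 2, where 19.0% were. Elongation factor genes were 6 of 6 in both and initiation factor genes 14 and 15. Synthetase genes numbered 8 and 11, with 5 in both. Of the 30 bound genes 25 stood among the strongest of both replicates. *eif-1.A* and *eif-3.H* did so in replicate 1 alone, and *eif-6*, *hars-1* and *tars-1* in replicate 2 alone; for *eif-6* the strong replicate 1 summit fell just outside the window. Of the 38 unbound genes 11 were among a replicate's strongest: *nars-1* in both, *ife-1*, *ears-1*, *fars-2* and *mars-1* in replicate 1, and *eif-2A*, *eif-2Bbeta*, *aars-2*, *kars-1*, *rars-2* and *sars-1* in replicate 2. The same share over all unbound protein-coding genes was not computed, so 11 of 38 has no value beside it. In the whole relaxed lists 65 members had a summit in replicate 1 and 62 in replicate 2, beside 66.6% and 53.5% of all genes.

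**Figure D3:**
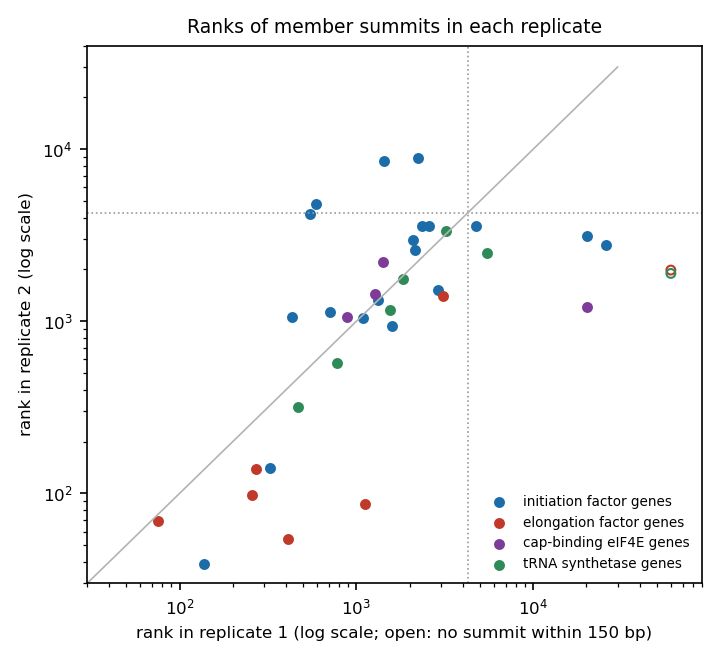
Rank of each of the 37 member summits in replicate 1 and replicate 2 (log axes, rank 1 strongest); dotted lines mark rank 4250 and open circles the 2 summits with no counterpart within 150 bp in replicate 1. The elongation factor summits lie below the diagonal, higher in replicate 2, and 27 of 37 lie inside both dotted lines.

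Of the 37 distinct summits in members' windows, 37 lay in the promoter of some protein-coding transcript, here 1000 bp upstream to 200 bp downstream of a start (100%, 95% Wilson interval 90.6 to 100, for the counting of peaks only). Over all optimal summits the share was 51.3%, and over the 3475 summits in the window of any protein-coding gene it was 62.8%. Of these summits 31 lay in a promoter of the member itself, which covers 28 of the 30 bound genes; the exceptions were *eif-2alpha* and *iars-2*. The median summit lay 332 bp upstream of the member's gene start, with quartiles at 886 and 119 bp upstream. Elongation factor summits had a median of 149 bp upstream and initiation factor summits 332 bp. Only 3 of 37 lay more than 200 bp downstream of the member's own start, 8.11% beside 27.7% of all gene and summit pairs. Windows reached 14395 bp among members and 104756 bp over all genes, which leaves more room for such pairs. No share for windows of like length was computed.

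**Figure D4:**
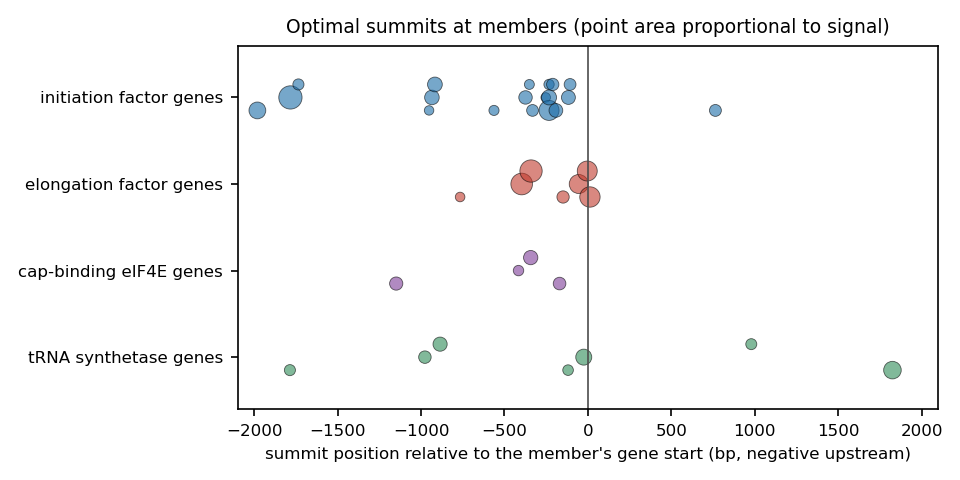
Position of each optimal summit relative to the start of the member whose window holds it (bp, negative upstream), by family, with point area proportional to signal. Most points lie within 1000 bp upstream; the strong initiation factor summits at 1783 and 1981 bp upstream belong to *eif-2alpha* and *eif-6*.

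Many summits had more than 1 gene to which they could be given. Of the 37, 28 also lay in the window of a gene outside the set and 9 in a member's window alone; none was shared by 2 members. A member had the nearest gene start for 22. Like shares over all optimal summits in gene windows were not computed, so whether such sharing is particular to these genes is not known. When each summit was given only to the gene of nearest start, 22 members were bound (10 initiation factor, 5 elongation factor, 3 eIF4E and 4 synthetase genes), beside 16.3% of all genes. Of these 21 were also bound by the window, and *nars-1* was added through a summit outside its window. The 9 genes bound by the window alone were *eef-1A.1*, *eif-2alpha*, *eif-3.D*, *eif-3.H*, *eif-4A3*, *eif-6*, *fars-1*, *iars-2* and *rars-1*. With a narrower window, reaching from 1000 bp before the start to 500 bp past it, 27 members were bound beside 12.4% of all genes.

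In *C. elegans* many genes lie in operons, where a downstream gene is transcribed from the promoter of the first gene; the annotation used does not mark them. As a stand-in, 18 members had the end of a same-strand gene within 500 bp upstream. Of these 7 were bound (38.9%), and of the other 50 members 23 were (46.0%). Over all genes the shares were 15.2% and 20.1%. In the narrower window, from 1000 bp before the start to 500 bp past it, 5 of the 18 (27.8%) and 22 of the 50 (44%) were bound. Shares of all genes split this way were not computed for that window. Of the 11 members with such a neighbour that were unbound in the 2000 bp window, 4 had an optimal summit at the first gene of the run. They were *gars-1* (at *prp-19*, signal 129.8), *fars-3* (at *zyg-9*, 54.8), *rars-2* (at *C29H12.2*, 39.1) and *eif-3.F* (at *egli-1*, 38.1). In that order, the summits lay 9057, 7287, 3629 and 8460 bp from the members' own starts. No such share was computed over all genes, so 4 of 11 has no value beside it. Whether these genes share a transcript was not tested.

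The composite letters TGATNNAT, a form bound by Hox proteins together with their Pbx-type partners, lay within 50 bp of 1 of the 37 summits (2.70%, 95% Wilson interval 0.479 to 13.8), that of *eif-4A3*. Among all optimal summits 8.92% held them, and among those in promoters 5.41%. With 1 match among 37 summits the interval is too wide to tell the member share from either. Within 100 bp the letters were found at 2 summits, the second being the upstream summit of *eef-1B.1*. TAATTA, a plain homeodomain core, was at 0 of 37, beside 1.15% of all. No match says only that these letters are not in the window.

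No annotated tRNA gene lay within 200 bp of any of them (upper Wilson bound 9.41%), beside 3.95% of all optimal summits. A small nucleolar, small nuclear or microRNA gene was that near at 3 (8.11% beside 2.68%): those of *eef-1A.1*, *eif-2Bgamma* and *fars-1*. Median GC content was 49.5%, beside 48.5%. Median signal was 67.1, beside 52.6 over all optimal peaks and 56.2 over those in promoters; by family it was 153 for elongation factor, 58.4 for initiation factor, 64.2 for eIF4E and 60.2 for synthetase summits. Among the 1000 strongest stood 14 of 37 (37.8%, beside 23.5% of all and 27.8% of promoter summits). Of the 37, 27 were among the strongest of both replicates (73.0%, beside 54.2% of all and 58.6% of promoter summits).

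Other genes of translation were taken from a separate list of 51 names outside or inside the set. Of these 3 were already members, 8 had no gene of that name, and 21 of the remaining 40 were bound (52.5%, beside 19.2% of all genes). The names were picked by hand with earlier results of these data known, so this share is no independent support for the counts at members. The 40 include *nac-1*, which was listed by its name, is not known as a gene of translation and was not bound. The highest signal of the list, 265, was at 82 bp upstream of *iff-2*, an eIF5A gene. Other bound initiation genes were *drr-2*, an eIF4H-like factor (154), *ifg-1*, for eIF4G (68.6), and *inf-1*, for the helicase eIF4A (37.2). The germline eIF5A gene *iff-1* and *iffb-1*, for eIF5B, were not bound. Both release factor genes were, *erfa-1* with 96.7 and *erfa-3* with 57.3, as were the poly(A)-binding protein genes *pab-1* (63.7) and *pab-2* (60.4).

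At the ribosome exit and surface, *icd-2* (142) and *icd-1* (89.7), of the nascent polypeptide-associated complex, and the ribosomal scaffold gene *rack-1* (80.4) were bound, and so were *larp-1* (161), *abcf-2* (180), *abcf-3* (36.9) and *hbs-1* (39.5). *abcf-1*, *abce-1*, *pelo-1*, the cap-binding complex genes *ncbp-1* and *ncbp-2*, and *dph-1*, *dph-2*, *dhps-1* and *dohh-1*, for modifying enzymes of eEF2 and eIF5A, were not. In signalling to translation, the TOR kinase gene *let-363* had a summit of 64.6, *atf-4* one of 47.2, the S6 kinase gene *rsks-1* 37.1 and the eIF2alpha kinase gene *gcn-2* and its partner gene *gcn-1* 34.8 each, while the kinase gene *pek-1* and the TOR partner gene *daf-15* had none. Of the mitochondrial factors listed, *tufm-1* was bound (38.1) and *tufm-2*, *tsfm-1*, *gfm-1* and *mrrf-1* were not. *glp-4*, known to encode a valyl-tRNA synthetase under a name outside the rule, was not bound.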

How the data were processed

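Per the labels, the samples were 2 biological replicates of whole L3 larvae, with library fragments of 150 to 350 bp; per the text indexes deposited with them, the peaks of either replicate were called over a shared control, which ties their lists together. The authors deposited peak lists on ce11: a relaxed list per replicate, a relaxed pooled list and an optimal list thresholded for reproducibility. The deposited signal is the authors' peak-caller value per peak, on a scale that differs between lists. Aligner, peak caller and settings: not given in the sources used here. Summits are the deposited offset added to the peak start. Lists on ce10 were not used, since no annotation of that build was at hand.

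Genes, transcripts and starts were taken from Ensembl release 115 (WBcel235, 6 nuclear chromosomes), sequence and product names from RefSeq. Windows, shares and distances were computed with Python 3.11.15, pandas 2.3.3, numpy 2.4.6 and scipy 1.17.1, and the window calls were tested on simulated data. A replicate's summit was matched within 150 bp. Every member is named as bound or not; full values are given for the 3 members of highest signal in each family, for those with 2 summits and for those among the strongest of 1 replicate only. The members and lists were chosen with earlier results of these data known. Values are descriptions of 1 group, and no p-value was computed. Alternatives were other list depths, single replicates, other windows, nearest start, peak midpoint, and other promoter, motif and tRNA distances.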

Additional observations from a re-analysis of the deposited data

How the results depend on the processing

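Counts of bound genes depended mostly on list depth. With the 1000 strongest optimal peaks 14 members were bound, of them 6 initiation factor, 1 eIF4E and 2 synthetase genes, and the composite motif share was 0%. With the whole pooled list 62 members were bound, of them 5 eIF4E and 29 synthetase genes; the promoter share was then 60.2% and the median summit lay 55 bp upstream. A window of the gene body and 5000 bp upstream gave 11 of the 32 synthetase genes, beside 27.0% of all genes. A promoter of 500 bp upstream to 100 bp downstream held 83.8% of the summits.

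Using 1 replicate alone gave 32 to 35 members, 14 to 15 initiation factor genes, 3 to 4 eIF4E genes and 8 to 11 synthetase genes. The promoter share was 84.6% in replicate 1 and 100% in replicate 2, and the median summit lay 235 and 308 bp upstream. Elongation factor genes numbered 5 or 6 under every alternative run. No paired analysis was possible because there was 1 group and no contrast. Lists on ce10 were not run. Depth is unknown, so a gene without a summit is not shown to lack LIN-39, and the causes of the shifts with depth and replicate were not tested.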

Other observations

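The summit windows of *eef-1B.1* and *eef-1B.2*, paralogous genes on chromosomes III and IV, share the run AAGGCGCATGG, 11 bases and the longest identical run between them. The letters GCGCATG within it, chosen after the sequences were seen and searched on both strands within 50 bp, lay at 4 of the 37 member summits (10.8%), beside 2.06% of all promoter summits (45 of 2181) and 1.44% of all optimal summits. The letters were read from the eEF1B windows, so these count by construction; without both, 2 of 35 member summits held them (5.71%). Those were at *eif-2gamma* (signal 74.8) and *eif-2beta* (54.6). What binds these letters, if anything, was not tested.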
